A study of Mus musculus with 12 samples.

Results

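Colonic crypts of CBPAAp53ΔIEC mice were compared with those of CBPWTp53-floxed control mice across all genes, with 1 RNA-seq library per mouse. The members of this comparison were the libraries titled p53koAA (3 mice) and WT (3 mice), which are 6 of the 12 libraries of the study; the other libraries, titled AA (CBPAAp53-floxed) and p53koWT (CBPWTp53ΔIEC), entered the fit and are given where they help to place a value. All mice were C57BL/6J, female and 8 weeks old per the study's methods, and crypts were released from the colon with 30 mM EDTA. Double mutant mice carry CBP in which a pair of serines is replaced by alanines (a knock-in with a neomycin cassette, backcrossed to C57BL/6; the study's methods name embryonic stem cells of a 129 background in one place and C57BL/6N cells in another) together with deletion of p53 by Villin-Cre, whose promoter is active in epithelial cells of the intestine. Control mice carry wild-type CBP and floxed p53. The labels name Vil only for the p53-deleted groups, so that Cre and p53 status cannot be told apart. No cohort is named in the sample titles, so that a difference of cohort between the groups cannot be told apart either. Since both alleles differ between the groups, this comparison does not separate the CBP change from the p53 change.

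CBP, the product of *Crebbp*, is an acetyltransferase that transcription factors recruit to open chromatin at the genes they switch on. p53 and NF-κB compete for it, and phosphorylation by IKKα moves CBP away from p53. p53 holds back the cell cycle and promotes repair or death of damaged cells. In the colonic crypt, stem cells at the base feed a zone of dividing progenitors, whose daughters stop dividing and mature into absorptive colonocytes and secretory cells as they move up.

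Total counts per library lay between 11177430 and 18029125 over the 12 libraries, and 14610 of 55471 genes passed the filter on low counts. Libraries of the control group correlated with each other at Pearson's r of 0.990 to 0.992 across genes (log2 CPM), and those of the double mutant at 0.966 to 0.983. Epithelial markers were abundant in all 6 libraries (*Epcam* 1179 to 1287 TPM, *Cdh1* 480.1 to 577.1 TPM), whereas the stromal markers *Col1a1*, *Col3a1* and *Pdgfra* reached at most 0.098 TPM, *Acta2* was at 0 in control and at up to 0.263 TPM in double mutant crypts, and *Pdgfrb* was at 4.99 to 5.96 TPM against 2.95 to 3.12 TPM. Of endothelial markers, *Cdh5* was at 0 and *Pecam1* at 0.613 to 1.28 TPM, and *Ptprc* of leukocytes was at most 1.19 TPM. The small-intestinal and Paneth cell markers *Defa24* and *Lyz1*, which the colon hardly expresses, were at 0 to 0.361 TPM in control crypts and at 13.7 to 1913 TPM in double mutant crypts, in which they are described with their list. The double mutant libraries did not form an even group: replicates 1 and 2 resembled each other in cell cycle genes, and replicate 3 lay near the controls. Sample weights estimated by limma were 1.45 to 2.71 for the control libraries, 2.097 and 1.17 for replicates 1 and 2 of the double mutant and 0.361 for its replicate 3. Outside the compared groups, *Xist*, the female-specific X-inactivation RNA, was at 0.683 TPM in replicate 1 of CBPAAp53-floxed mice and at 65.9 to 168 TPM in the other 11 libraries, while *Ddx3y*, *Kdm5d* and *Uty* of the Y chromosome were at 0 in all 12; without that library 2 genes passed the cutoff used below.

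Double mutant crypts had 3 genes past the cutoff (edgeR's quasi-likelihood test with an adjusted p under 0.05, and a log2 difference of over 0.5 either way), and all of them fell. They were *Trp53* itself and the p53 target genes *Ephx1* and *Eda2r*, and they are 0.0205% of the 14610 genes tested. No gene rose past the cutoff in edgeR, although 1063 genes (7.28%) had an unadjusted p under 0.05 with a higher level and 555 (3.8%) with a lower one. The number of calls depended on the tool and on 1 mouse: DESeq2 called 276 genes, 1.89% of those tested (225 or 1.54% higher, 51 or 0.349% lower), limma voom with sample weights called 1278 or 8.75% (838 or 5.74% higher, 440 or 3.01% lower), and edgeR without replicate 3 of the double mutant called 467 or 3.13% (369 or 2.48% higher, 98 or 0.658% lower). DESeq2 called *Trp53* and *Ephx1* of the 3 genes and gave no adjusted p for *Eda2r*. In edgeR the count was 1 gene, *Trp53*, without any single control library or without replicate 1 of the double mutant. The median log2 fold change of all genes tested was 0.0061, and 51.1% of them were above 0.

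*Trp53* (ENSMUSG00000059552, chromosome 11 of GRCm38, 69580359 to 69591873), the deleted gene, was at 24.6, 28.6 and 30.4 TPM in the control mice and at 5.05, 4.66 and 6.13 TPM in the double mutant mice. The groups were far apart, and 18.9% of the control level remained (log2 fold change −2.40, SE 0.22, edgeR adjusted p = 0.00091). Which exons the remaining reads came from was not analysed here. *Trp53-ps*, a processed pseudogene of *Trp53* on chromosome 17, had 44 counts over the control libraries and 0 over the double mutant libraries, at least 13.4-fold lower against a floor of 3 counts over the group (edgeR adjusted p = 0.108); its reads can be reads of *Trp53*.

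*Ephx1* (chromosome 1, 180976210 to 181020904) encodes microsomal epoxide hydrolase, a detoxifying enzyme. Its level was 20.01, 19.4 and 19.8 TPM in control and 6.28, 7.99 and 4.42 TPM in double mutant crypts, so that the lowest control library stood above every double mutant library. It fell to 31.3% of the control level (log2 fold change −1.68, SE 0.22, edgeR adjusted p = 0.0219). *Eda2r* (chromosome X, 97333840 to 97377216), a receptor of the TNF receptor family for ectodysplasin A2, was at 0.697, 0.596 and 0.915 TPM in control and at 0, 0.0653 and 0.0299 TPM in double mutant crypts. These are 77 counts against 3, a ratio of 23.4 with an exact 95% counting interval of 7.72 to 116 (log2 fold change −4.40, SE 0.60, edgeR adjusted p = 0.0252). Intervals and floors cover counting error only. With the control replicates left out in turn, the adjusted p of *Ephx1* was 0.094 to 0.131 and that of *Eda2r* 0.094 to 0.189. Without replicate 1 of the double mutant it was 0.155 for both.

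**Figure D1:**
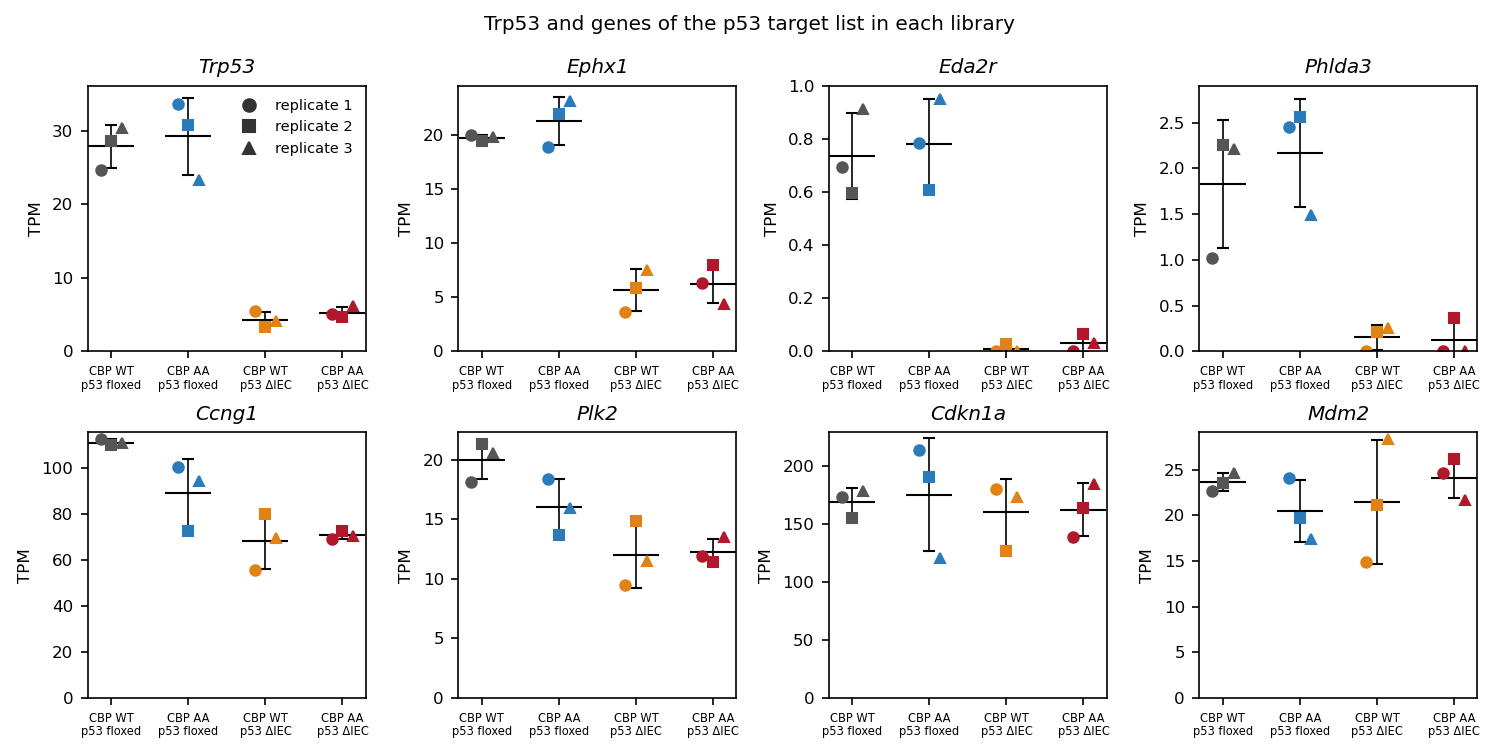
TPM (y axis, from 0) of *Trp53* and 7 members of the p53 target list in the 12 libraries, by group on the x axis; symbols mark the replicate, the horizontal bar the group mean and the whiskers ± SD (n = 3). *Trp53*, *Ephx1*, *Eda2r* and *Phlda3* are low in both p53-deleted groups, *Ccng1* and *Plk2* are lower by less, and for *Cdkn1a* and *Mdm2* the double mutant and control points overlap.

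The p53 target list had 39 members tested, with a median log2 fold change of −0.14. Both called members fell (0.0205% of all genes were called lower). An unadjusted p under 0.05 came with a lower level in 8 (3.8% of all genes) and with a higher level in 2 (7.28%). In 11 all double mutant libraries were below all control libraries (in 10.3% of all genes tested they were). *Ccng1* (cyclin G1) was the most even of them, at 113, 110 and 111 TPM in control and 69.2, 72.7 and 70.6 TPM in double mutant crypts (log2 fold change −0.66, SE 0.13, adjusted p = 0.13). *Phlda3*, which restrains AKT, had 53 counts against 3, a ratio of 16.1 with an exact counting interval of 5.23 to 80.7 (adjusted p = 0.134). *Plk2*, a kinase, was at 18.1 to 21.3 TPM against 11.4 to 13.5 TPM, and the stress cytokine *Gdf15* at 2.59 to 5.30 TPM against 1.504 to 1.77 TPM. In both, no libraries of the groups overlapped, and neither passed the cutoff (log2 fold changes −0.71 and −1.13, adjusted p = 0.139 and 0.208).

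Other targets did not follow this. *Cdkn1a*, which encodes the CDK inhibitor p21, was at 173, 155 and 179 TPM in control and 139, 164 and 184 TPM in double mutant crypts, and these ranges overlapped (log2 fold change −0.06, 95% interval −0.50 to 0.37). *Mdm2*, the ubiquitin ligase of p53, was at 22.7 to 24.6 TPM against 21.7 to 26.1 TPM (0.02, interval −0.23 to 0.27), and *Bax*, an effector of apoptosis, had a log2 fold change of 0.10 (interval −0.32 to 0.52). *Ckap2*, a spindle protein, was among the higher members (1.02, SE 0.36, adjusted p = 0.301). In the BCL2 family, 14 members were tested with a median of −0.13. An unadjusted p under 0.05 with a lower level (3.8% of all genes) was found in 3: *Bmf* (−0.58), *Mcl1* (−0.29) and *Bcl2l14* (−0.25). *Bmf* promotes apoptosis, whereas *Mcl1* prevents it. *Bcl2l15*, another member, had 1 count over the control and 98 over the double mutant libraries, a ratio of 107 with an exact counting interval of 18.8 to 4280 (edgeR adjusted p = 0.468).

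Away from p53 and its targets, the smallest p among genes with higher levels belonged in part to genes of dividing cells, and none of these genes passed the cutoff in edgeR. The 12 higher genes with the smallest p were *Cdt1*, *Cyp4f15*, *Clec16a*, *Cenpw*, *Mcm10*, *Tuba1b*, *Cenpm*, *Trpm6*, *Fam98b*, *Nrm*, *Cps1* and *Bex1*, with edgeR adjusted p-values between 0.0866 and 0.134. *Cdt1* loads the replicative helicase, *Mcm10* starts the fork, *Cenpw* and *Cenpm* are centromere proteins and *Tuba1b* is an alpha-tubulin. *Trpm6* is a magnesium channel of the colonocyte, *Cyp4f15* a fatty acid hydroxylase and *Cps1* a mitochondrial enzyme of the urea cycle. *Cps1* was at 3.46 to 5.13 TPM in control crypts and at 36.4, 11.1 and 19.4 TPM in double mutant crypts (log2 fold change 2.43, SE 0.44). *Cyp4f15* was at 0.0669 to 0.30 TPM against 1.35 to 3.25 TPM (3.46, SE 0.57).

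The 12 lower genes with the smallest p were *Trp53*, *Ephx1*, *Eda2r*, *Pik3r3*, *Trp53-ps*, ENSMUSG00000072812 (*Ahnak2* in GENCODE), *Insrr*, *Dapk1*, *Chrm1*, *Ccng1*, *Kyat1* and *Ube2b*. *Chrm1* is a muscarinic receptor, *Kyat1* a kynurenine aminotransferase and *Ube2b* a ubiquitin-conjugating enzyme. *Pik3r3*, a regulatory subunit of PI3 kinase, was at 23.3, 26.7 and 24.3 TPM in control and 14.1, 16.4 and 17.1 TPM in double mutant crypts (−0.65, SE 0.11, adjusted p = 0.0866). *Dapk1*, a death-associated kinase, was at 5.47 to 7.48 TPM against 3.74 to 4.26 TPM (−0.64, SE 0.12), and *Insrr*, an alkali-sensing receptor of the insulin receptor family, at 11.7 to 18.2 TPM against 6.82 to 8.99 TPM (−0.88, SE 0.16). In all 24 of these genes, which were chosen by this same comparison, the groups did not overlap. *Insrr* overlaps *Pear1* on the opposite strand (150 counts over the control libraries), and *Dapk1* holds the pseudogene Gm48583 (409 counts) on its own strand. Among genes described below, *Plk1* (292 counts over the control libraries) overlaps Gm44985 (4393 counts), *Dbp* (978) overlaps *Sphk2* (4802), *Scnn1b* (612) overlaps *Cog7* (1289), *Dll4* (756) overlaps Gm14207 (251) and *Vcan* (181) overlaps Gm4117 (27), all on the opposite strand. Reads of such partners cannot be told apart without strand. Use of strand in the counting is not given in the sources used here.

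**Figure D2:**
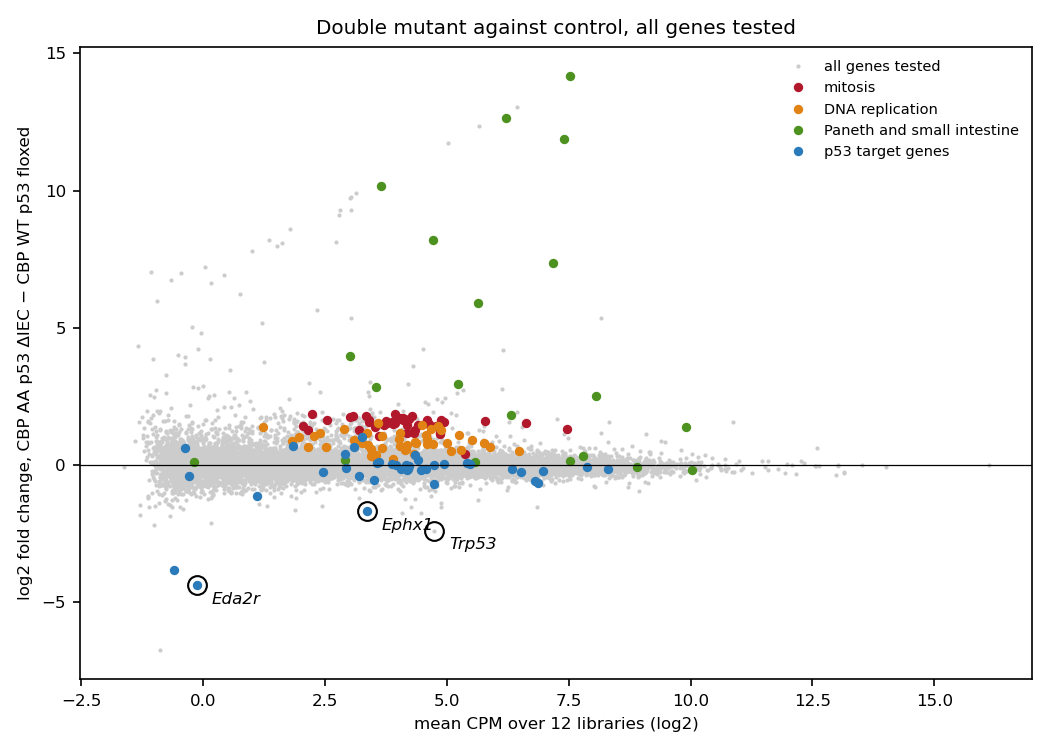
Log2 fold change of the double mutant against control (y axis, edgeR) against the mean CPM over the 12 libraries (x axis, log2) for the 14610 genes tested; colours mark 4 gene lists and circles the 3 genes past the cutoff. Mitosis and DNA replication genes form a band above 0, all 42 and all 45 of them, and the highest points include *Defa24* and *Lyz1*, whose 0 and 2 counts in control crypts make the fitted fold change depend on the prior count.

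Genes of mitosis were higher throughout their list. All 42 members tested had a fold change above 0 and an unadjusted p under 0.05 (7.28% of all genes had that in this direction), the median log2 fold change was 1.52, and none passed the cutoff in edgeR. DESeq2 called 33 of the 42 (1.54% of all genes were called higher) and limma with sample weights 41 (5.74%). The double mutant mice were divided. Summed over the list, the level was 251, 283 and 227 TPM in control crypts and 938, 905 and 288 TPM in double mutant crypts, so that 2 mice stood at 3.69 and 3.57 times the control mean and the other one at 1.13 times. In replicates 1 and 2 all 42 genes were above every control library (36.6% and 35.6% of all genes tested were), and in replicate 3, 24 or 57.1% were (29.9% of all genes). Without replicate 3, edgeR called 39 of the 42 (2.48% of all genes were called higher), with a median of 1.88. In bulk RNA, more dividing cells and more RNA of these genes per cell cannot be told apart.

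Single genes had the same course. *Mki67*, which encodes the proliferation marker Ki-67, was at 23.8, 27.4 and 22.3 TPM in control crypts and at 75.7, 81.9 and 25.7 TPM in double mutant crypts, and the groups overlapped (log2 fold change 1.30, SE 0.48, adjusted p = 0.353). *Pbk*, a mitotic kinase, was at 7.28 to 8.03 TPM against 37.7, 37.2 and 9.92 TPM (1.86, SE 0.44, adjusted p = 0.197). *Birc5* (survivin), which positions the chromosomal passenger complex, was at 5.195 to 6.64 TPM against 27.7, 25.2 and 6.98 TPM (1.77, SE 0.42, adjusted p = 0.2). *Cdk1*, the kinase that drives entry into mitosis, was at 4.95 to 5.72 TPM against 16.7, 15.99 and 6.03 TPM (1.23, SE 0.31), and its partner *Ccnb2* (cyclin B2) at 13.1 to 18.2 TPM against 60.1, 51.2 and 15.9 TPM (1.45, SE 0.40). For *Ccnb2* the third mouse lay inside the control range.

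**Figure D3:**
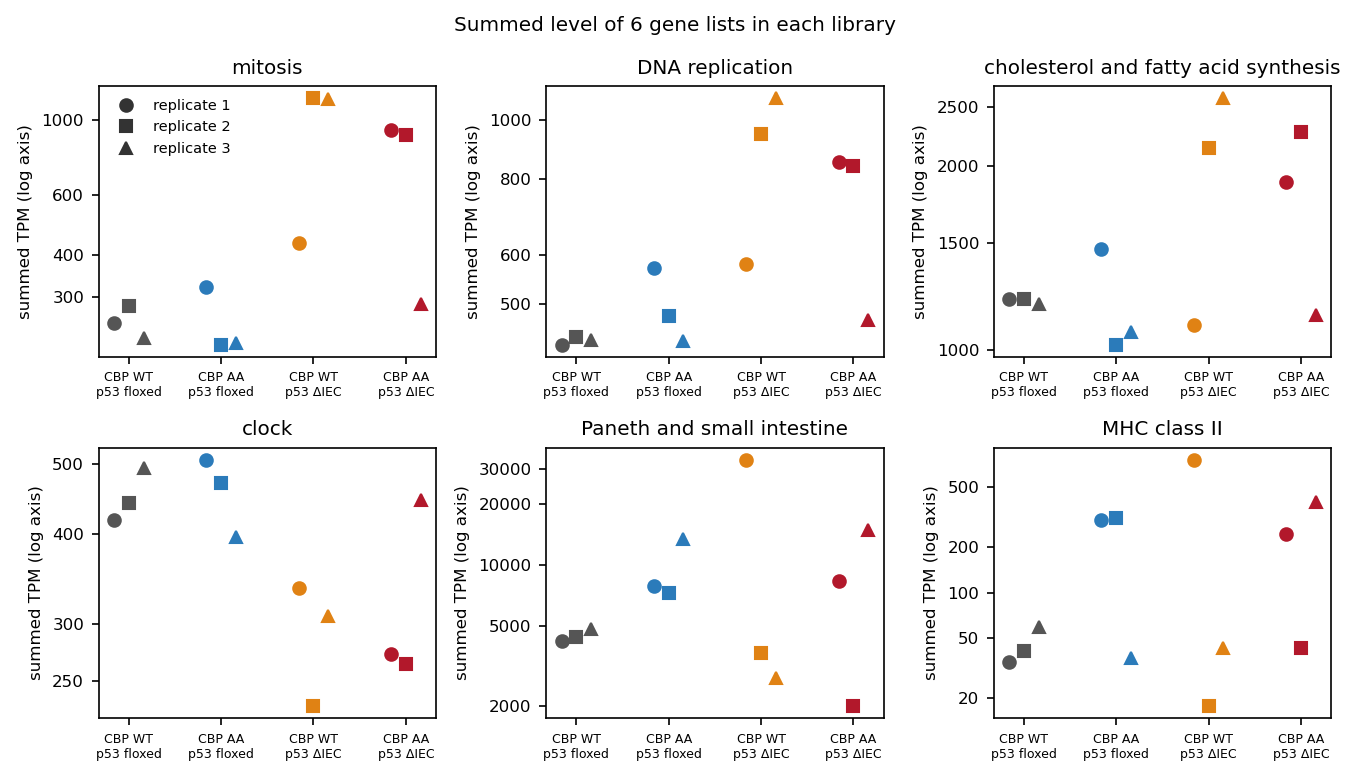
Summed TPM (y axis, log axis) of 6 gene lists in each of the 12 libraries, by group on the x axis, with symbols for the replicate. Replicates 1 and 2 of the double mutant are high for mitosis, DNA replication and cholesterol synthesis and low for clock genes, while its replicate 3 lies near the controls for these and is highest of its group for the Paneth and small intestine list (15010 TPM) and for MHC class II (399 TPM).

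Genes of DNA replication followed with a smaller difference, and the third mouse again stood near the controls. In replicate 3, 62.2% of the list was above every control library (57.1% for mitosis) and 13.3% was below every control library (2.38% for mitosis). All 45 members were above 0 with a median log2 fold change of 0.80. An unadjusted p under 0.05 was found in 39 (7.28% of all genes in this direction), and in 28 the groups did not overlap (10.8% of all genes tested did so in this direction). None passed the cutoff in edgeR. DESeq2 called 19 (1.54% of all genes were called higher), limma with sample weights 41 (5.74%) and edgeR without replicate 3 called 34 (2.48%). Their summed level was 429, 442 and 436 TPM in control and 852, 841 and 471 TPM in double mutant crypts. *Cdt1* was at 12.6, 13.1 and 14.9 TPM against 25.01, 25.01 and 19.4 TPM (0.76, SE 0.12, adjusted p = 0.0866), *Mcm10* at 2.16 to 2.73 TPM against 3.73 to 6.37 TPM (1.04, SE 0.19), and *Mcm6*, a subunit of the replicative helicase, at 13.5 to 17.9 TPM against 19.4 to 34.9 TPM (0.91, SE 0.19). *Rrm2*, the regulated subunit of ribonucleotide reductase, was at 8.27 to 14.3 TPM against 16.9 to 35.6 TPM (1.30, SE 0.27, adjusted p = 0.141). In all 4 of these genes every double mutant library was above every control library.

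DNA repair and checkpoint genes had a median of 0.79 over 29 members, of which 20 had an unadjusted p under 0.05, all with higher levels (7.28% of all genes). *Brca1* (1.63, SE 0.39) and *Rad54b* (1.77, SE 0.44) of homologous recombination and *Timeless* (1.19, SE 0.28), which protects the fork, had the smallest p. DESeq2 called 8 of the 29 (1.54% of all genes were called higher), and edgeR called none. Among cyclins, E2F factors and CDK inhibitors (24 members, median 0.23), 9 had an unadjusted p under 0.05, all with higher levels (7.28% of all genes). *Ccne1* (cyclin E1), which starts S phase, was at 1.91 to 2.29 TPM against 3.83 to 7.45 TPM (1.47, SE 0.32, adjusted p = 0.142). The repressor *E2f7* (1.52, SE 0.41) and the CDK inhibitor *Cdkn2c* (1.06, SE 0.27) were also higher in every double mutant library.

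Promoter sequences are shown for 5 of these genes because mitosis and DNA replication promoters differed in the letters they hold. RefSeq promoter windows of GRCm38.p6 (250 bases before to 50 after the start) were matched by symbol for 10307 of the 14610 genes tested, and 6 motifs were searched on both strands: the cell cycle homology region TTTGAA (CHR), the E2F letters TTTNNCGC, the CCAAT box, the sterol element TCACNCCAC, the E-box CACGTG and the p53 half-site. CHR was found in 25 of 33 mitosis promoters (75.8%) against 12.2% of all promoters, and CCAAT in 24 of 33 (72.7%) against 38.9%. CCAAT was also found in 61.1% of DNA replication, 82.4% of cholesterol synthesis and 76.9% of clock promoters. The E2F letters were found in 2 of the 33 (6.06%), but in 13 of 36 DNA replication promoters (36.1%) against 8.5% of all promoters, and CHR in 7 of these 36 (19.4%). The sterol element was found in 1 of 17 cholesterol synthesis promoters (5.88%) against 1.09% of all promoters, and the E-box in 4 of 13 clock promoters (30.8%) against 10.1%. CHR and the E2F letters cannot share a base by their spelling, and CHR and CCAAT matches overlapped in 13 of the 10307 promoters. In the sequences below, capitals mark CHR in the first 3, the E2F letters in *Mcm6* (2 of its 3 matches overlap) and the p53 half-site in *Ccng1*. *Cdk1* also holds 2 matches to the E2F letters, which are not marked.
Ccnb2: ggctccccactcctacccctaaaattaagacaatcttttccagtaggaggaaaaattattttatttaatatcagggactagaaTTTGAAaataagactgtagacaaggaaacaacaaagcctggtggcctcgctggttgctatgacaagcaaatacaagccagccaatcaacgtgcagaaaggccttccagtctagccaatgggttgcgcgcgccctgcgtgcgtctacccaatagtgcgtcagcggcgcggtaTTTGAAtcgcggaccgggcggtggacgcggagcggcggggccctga
Cdk1: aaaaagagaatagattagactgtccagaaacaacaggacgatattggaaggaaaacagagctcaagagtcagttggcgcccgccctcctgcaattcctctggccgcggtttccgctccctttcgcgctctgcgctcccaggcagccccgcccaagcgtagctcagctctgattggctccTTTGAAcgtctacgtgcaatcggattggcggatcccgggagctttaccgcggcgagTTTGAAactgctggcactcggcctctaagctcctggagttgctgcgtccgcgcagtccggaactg
Plk1: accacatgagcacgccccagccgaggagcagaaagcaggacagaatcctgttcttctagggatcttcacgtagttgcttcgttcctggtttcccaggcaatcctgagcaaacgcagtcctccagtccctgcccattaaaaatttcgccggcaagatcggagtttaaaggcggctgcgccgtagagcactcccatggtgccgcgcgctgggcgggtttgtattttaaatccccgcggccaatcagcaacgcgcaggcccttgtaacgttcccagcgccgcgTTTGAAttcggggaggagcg
Mcm6: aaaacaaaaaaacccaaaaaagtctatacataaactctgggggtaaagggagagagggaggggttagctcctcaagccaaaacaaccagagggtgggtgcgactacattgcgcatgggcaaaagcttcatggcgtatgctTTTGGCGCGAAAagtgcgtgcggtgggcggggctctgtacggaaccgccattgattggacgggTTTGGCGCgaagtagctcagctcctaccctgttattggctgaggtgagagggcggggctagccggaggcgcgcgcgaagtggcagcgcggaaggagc
Ccng1: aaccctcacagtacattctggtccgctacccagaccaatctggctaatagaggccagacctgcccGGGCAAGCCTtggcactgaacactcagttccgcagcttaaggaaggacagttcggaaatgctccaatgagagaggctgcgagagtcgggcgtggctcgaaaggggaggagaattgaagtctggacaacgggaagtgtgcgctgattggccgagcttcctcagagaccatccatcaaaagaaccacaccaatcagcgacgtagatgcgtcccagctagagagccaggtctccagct

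In the order shown, these windows are chr9:70421505-70421804, chr10:69352863-69353162, chr7:122159185-122159484, chr1:128359656-128359955 and chr11:40755237-40755536, with *Plk1* on the plus strand and the others on the minus strand. *Plk1*, the polo-like kinase of mitosis, was at 6.12 to 8.75 TPM in control and 34.6, 31.1 and 8.64 TPM in double mutant crypts. The p53 half-site was found in 6 of 31 p53 target promoters (19.4%) against 6.96% of all promoters, but also in 4 of 17 cholesterol synthesis promoters (23.5%) and 4 of 33 mitosis promoters (12.1%). *Ccng1* held 1 match and *Cdkn1a* 2, while *Eda2r*, *Ephx1* and *Phlda3* held none in these windows. Within the mitosis list, the 25 genes with CHR had a median log2 fold change of 1.502 and the 8 without it 1.74. Within the DNA replication list, the 13 with the E2F letters had a median of 0.87 and the 23 without them 0.79.

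Genes of cholesterol and fatty acid synthesis were also mostly higher. Of 26 members 25 were above 0, the median log2 fold change was 0.48, and 15 had an unadjusted p under 0.05 with a higher level (7.28% of all genes). EdgeR called none, DESeq2 called 3 (1.54% of all genes were called higher) and limma with sample weights 14 (5.74%). The summed level was 1210, 1211 and 1190 TPM in control and 1888, 2276 and 1143 TPM in double mutant crypts, again with the third mouse at the control level. *Nsdhl*, a sterol dehydrogenase, was at 19.8 to 22.2 TPM against 38.8, 43.7 and 26.9 TPM (0.77, SE 0.16, adjusted p = 0.134).

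Clock genes divided the same mice in the other direction. The median log2 fold change over 16 members was −0.63 (−1.04 without replicate 3 of the double mutant). With an unadjusted p under 0.05, 2 were lower (3.8% of all genes were) and 1 (*Nfil3*) was higher (7.28%). EdgeR called none of the 16, and DESeq2 called 1 as lower (0.349% of all genes). Limma with sample weights called 11, of which 9 were lower (3.01%) and 2 higher (5.74%). The core activator *Bmal1* is not among the 16, since the list holds it under an older symbol that the table does not use, and it was higher in the double mutant on average (0.87, SE 0.27, adjusted p = 0.24, groups overlapping). *Per2*, a repressor of the clock, was at 9.74, 9.83 and 10.8 TPM in control and 4.34, 4.63 and 7.60 TPM in double mutant crypts (−0.87, SE 0.19, adjusted p = 0.142). *Dbp*, an output factor, was at 16.7 to 20.5 TPM against 3.35, 4.18 and 15.6 TPM (−1.23, SE 0.77), and *Tef*, of the same family, at 29.7 to 37.4 TPM against 8.38, 7.00 and 37.6 TPM (−0.91, SE 0.78). The study's methods place the killing of mice from 10 am to 3 pm, and the hour of each mouse is not given in the sources used here. Its part in these values was not tested.

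**Figure D4:**
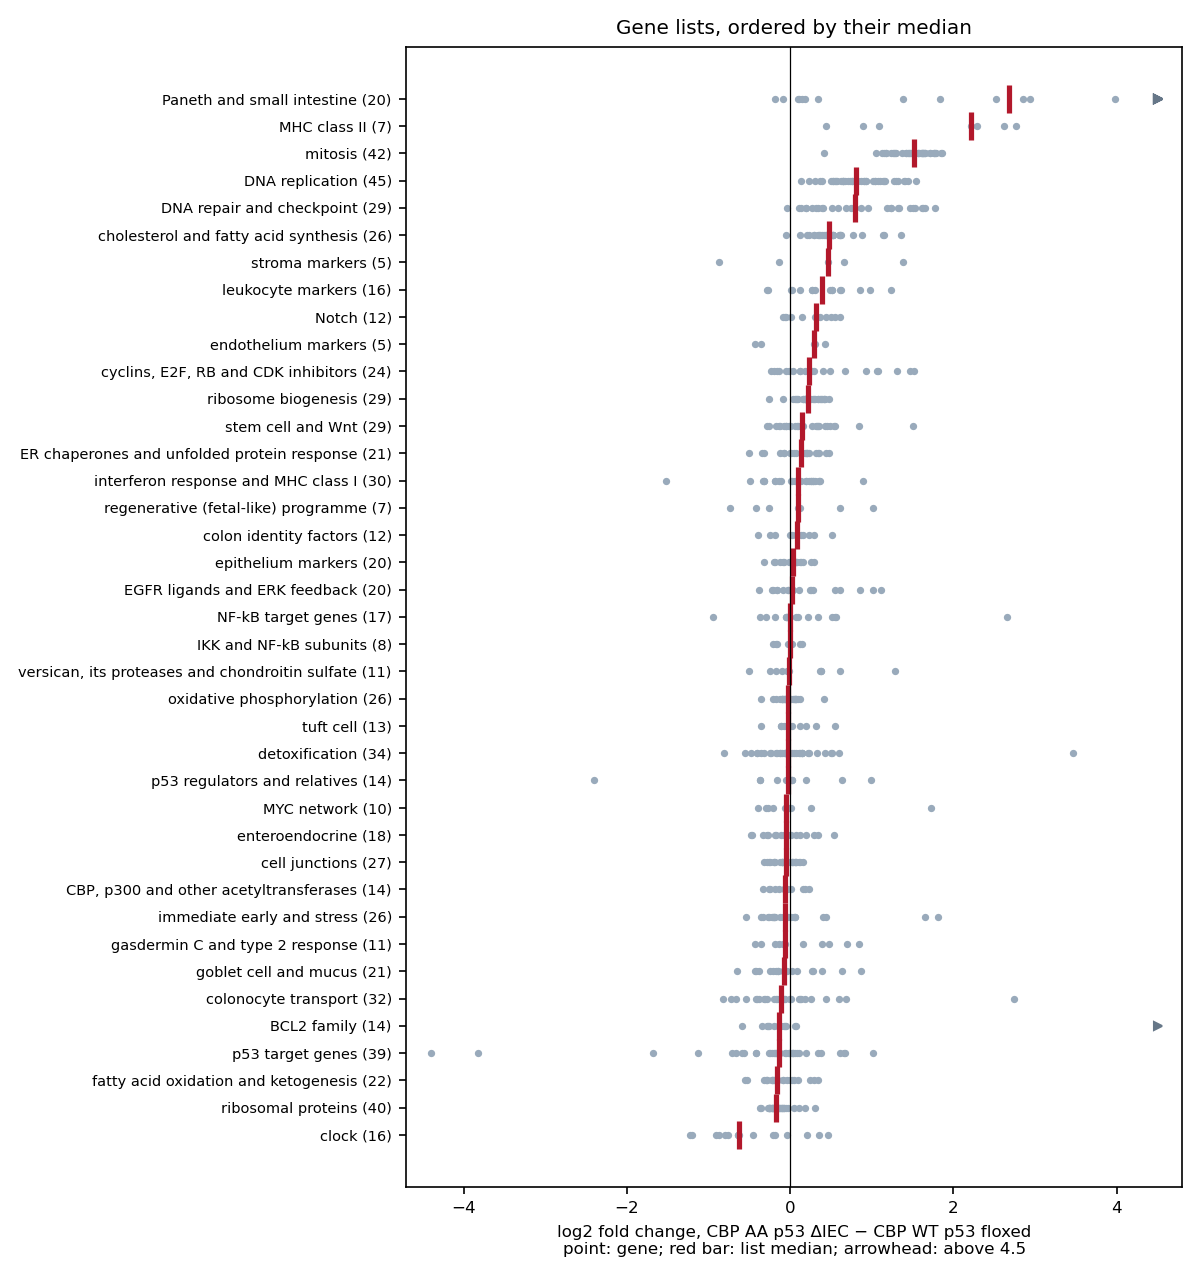
Log2 fold change of the double mutant against control (x axis, edgeR) for the members of 39 gene lists (y axis, number of members tested in brackets), with the list median as a red bar; arrowheads stand for members above 4.5. Medians run from −0.63 (clock) to 2.68 (Paneth and small intestine), and all members of mitosis (1.52) and DNA replication (0.80) and 28 of 29 of DNA repair (0.79) lie above 0.

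Stem cell, Notch and growth genes had small differences. Of 29 stem cell and Wnt genes tested (median 0.14), 5 had an unadjusted p under 0.05, all with higher levels (7.28% of all genes). They were *Cdca7*, *Sp5*, *Ascl2*, *Axin2* and *Lgr5*. *Lgr5*, the marker of crypt base stem cells, was at 4.87, 4.46 and 4.76 TPM in control and 6.51, 5.61 and 5.79 TPM in double mutant crypts. For *Lgr5*, every double mutant library was above the controls, replicate 3 included, and the difference did not pass the cutoff (0.34, SE 0.13, adjusted p = 0.316). The list did not follow it there: in replicate 3, 8 of the 29 were above every control library and 14 below (29.9% and 29.7% of all genes). In replicates 1 and 2, 20 and 17 were above (36.6% and 35.6% of all genes) and 4 and 3 below (34.4% for both). *Ascl2*, a stem cell transcription factor, was at 10.2 to 12.4 TPM against 13.3 to 19.0 TPM (0.55, SE 0.18). Of 12 Notch pathway genes (median 0.32), 5 had an unadjusted p under 0.05, all higher (7.28% of all genes). Among them were the ligands *Dll4* (0.45, SE 0.12) and *Dll1* (0.62, SE 0.24) and the target *Hes1* (0.37, SE 0.13). Ribosome biogenesis genes had a median of 0.21, with 27 of 29 above 0. An unadjusted p under 0.05 was found in 10 of them, all higher (7.28% of all genes). Cytosolic ribosomal proteins had a median of −0.18, with 4 of 40 above 0. None of the 40 had an unadjusted p under 0.05, and none was called by edgeR, DESeq2 or limma. In 11, all double mutant libraries were below all control libraries (10.3% of all genes). In replicates 1 and 2, 36 were below every control library (34.4% of all genes for both), and in replicate 3, 11 were (29.7%).

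Genes of the mature colonocyte were lower in part, and the double mutant mice were divided. Of 32 colonocyte transport genes (median −0.11), 6 had an unadjusted p under 0.05 with a lower level (3.8% of all genes) and 1 with a higher level (7.28%). EdgeR called none of them and DESeq2 1 as lower (0.349%). Against the control mean (log2 CPM), the list median was −0.33 and −0.26 in replicates 1 and 2 and 0.11 in replicate 3. In replicate 3, 15 of the 32 were above every control library and 12 below (29.9% and 29.7% of all genes). In replicates 1 and 2, 8 and 4 were above (36.6% and 35.6% of all genes) and 19 and 24 below (34.4% for both). *Car4*, a membrane carbonic anhydrase, was at 718, 746 and 570 TPM in control and 411, 395 and 490 TPM in double mutant crypts (−0.66, SE 0.15, adjusted p = 0.15). The sodium channel subunits *Scnn1a* (−0.38, SE 0.12) and *Scnn1b* (−0.54, SE 0.18) and the sodium-proton exchanger *Slc9a3* (−0.82, SE 0.27) were also lower in every double mutant library. The cytosolic *Car1* went the other way (0.60, SE 0.21, adjusted p = 0.299), and *Slc26a3* was at 142 to 174 TPM in control and 139 to 175 TPM in double mutant crypts. Goblet cell genes (21 members, median −0.07), enteroendocrine genes (18, −0.05), tuft cell genes (13, −0.03) and cell junction genes (27, −0.06) had medians near that of all genes, and *Cdh1* (E-cadherin) had a log2 fold change of 0.07 (interval −0.19 to 0.32). The enteroendocrine list summed to 813 to 850 TPM in control and to 974, 802 and 535 TPM in double mutant crypts. In replicate 3, 13 of these 18 genes were below every control library (29.7% of all genes were). Of the gasdermin C cluster, *Gsdmc4* was at 463 to 596 TPM in control and 805 to 1233 TPM in double mutant crypts (0.84, SE 0.21, adjusted p = 0.197).

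The widest differences were in Paneth cell and small-intestinal genes, and they were uneven. *Defa24*, an alpha-defensin of Paneth cells, was at 0 TPM in all control libraries and at 1079, 19.8 and 1913 TPM in the double mutant libraries, at least 2570-fold higher over the group against a floor of 3 counts (edgeR adjusted p = 0.519). *Lyz1*, the Paneth cell lysozyme, had 2 counts in control and 8545 in double mutant crypts, a ratio of 4680 with an exact counting interval of 1300 to 38700 (adjusted p = 0.418). *Fabp6*, the bile acid binding protein of the ileum, was at 4.78 to 5.94 TPM against 453, 20.1 and 500 TPM (adjusted p = 0.481). Of 20 members, 18 were above 0 with a median of 2.68, also with the genes at 0 in controls set to their bound. In 8, every double mutant library was above the controls (10.8% of all genes), and 2 had an unadjusted p under 0.05 with a higher level (7.28%). EdgeR called 0 of the 20. DESeq2 called 6 higher (1.54% of all genes were), and limma with sample weights 1, near its share of all genes (5.74%). Without replicate 3 the median was 1.04. The summed level was 4234 to 4813 TPM in control and 8361, 2008 and 15010 TPM in double mutant crypts, with 7292 to 13540 TPM in the 3 CBPAAp53-floxed libraries and 33240, 3667 and 2773 TPM in CBPWTp53ΔIEC. *Ang4*, an angiogenin with a high level in colon too, was at 1875 to 3725 TPM in control and at 2333, 299 and 4942 TPM in double mutant crypts. The part of these transcripts in the other results was not tested.

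Within the double mutant, MHC class II genes were high in the same mice as the defensins. All 7 were above 0 with a median of 2.21 (1.36 without replicate 3), none had an unadjusted p under 0.05, and edgeR, DESeq2 and limma with sample weights called none. *Cd74*, the invariant chain, was at 12.1, 17.8 and 26.7 TPM in control and 138, 19.7 and 226 TPM in double mutant crypts, and the list sum was 34.5 to 58.8 TPM against 243, 43.2 and 399 TPM. It was 300.5, 310.1 and 37.1 TPM in CBPAAp53-floxed and 757, 17.7 and 42.7 TPM in CBPWTp53ΔIEC crypts. In the CBPAAp53-floxed mice the Paneth and small intestine list summed to 7875, 7292 and 13540 TPM in the same order, highest where MHC class II was lowest. Leukocyte markers, which could carry MHC class II, summed to 53.8 to 74.2 TPM in control and 54.8 to 80.1 TPM in double mutant crypts, with a median log2 fold change of 0.40 (14 of 16 above 0) that was −0.024 without replicate 3 of the double mutant. Endothelial markers summed to 7.16 to 8.59 TPM against 7.10 to 8.48 TPM, and stromal markers to 9.13 to 10.7 TPM against 7.69 to 9.13 TPM.

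For CBP and its partners in the nucleus no difference in level passed the cutoff. *Crebbp* (chromosome 16, 4081328 to 4213997) was at 8.14, 9.01 and 11.5 TPM in control and 8.64, 10.3 and 8.93 TPM in double mutant crypts (log2 fold change −0.04, 95% interval −0.32 to 0.23). Of 14 acetyltransferase genes (median −0.06), 1 had an unadjusted p under 0.05 with a higher level, *Kat2a* (0.23, SE 0.09), near the share of all genes (7.28%). Of 8 IKK and NF-κB subunit genes (median −0.01) none had an unadjusted p under 0.05. Of 17 NF-κB target genes (median −0.01), 8 were above 0 and 9 below. An unadjusted p under 0.05 came with a lower level in 1 (3.8% of all genes) and with a higher level in 1 (7.28%). The lower one was *Saa1*, an acute phase protein (−0.94, SE 0.28, adjusted p = 0.224). *Vcan*, which encodes the matrix proteoglycan versican, was at 0.536, 0.813 and 0.725 TPM in control and 0.552, 0.878 and 0.523 TPM in double mutant crypts (−0.11, interval −0.72 to 0.51). In the CBPAAp53-floxed mice it was at 0.203 to 0.254 TPM, a difference from control that did not pass the cutoff (−1.44, adjusted p = 0.56).

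The single mutants show on which side of the double mutant a gene stood. These comparisons share the control libraries, so that their values are given side by side. *Trp53*, *Ephx1* and *Eda2r* had log2 fold changes of −2.64, −1.79 and −5.67 in CBPWTp53ΔIEC mice and 0.18, 0.25 and 0.21 in CBPAAp53-floxed mice. Of the lists, mitosis had a median of 1.91 in CBPWTp53ΔIEC and 0.06 in CBPAAp53-floxed mice, DNA replication 1.11 and 0.33, cholesterol synthesis 0.59 and 0.06, and clock −0.74 and 0.09. The CBPWTp53ΔIEC mice were divided as well, with replicate 1 the lowest in the sums of mitosis, DNA replication and cholesterol synthesis. For clock it was the highest, with sums of 336.5, 230.8 and 307.6 TPM over the replicates. Mitosis summed to 435, 1159 and 1155 TPM in the CBPWTp53ΔIEC mice, DNA replication to 580.8, 945.5 and 1083 TPM, and cholesterol synthesis to 1098, 2145 and 2584 TPM. In the library names, replicate 1 of CBPWTp53ΔIEC and replicate 3 of the double mutant carry lower numbers than the other mice of their groups. What these numbers stand for is not given in the sources used here. The cause of this division was not tested. *Clec16a*, an autophagy regulator, was at 7.85 to 8.04 TPM in control, 4.76 to 7.96 TPM in CBPWTp53ΔIEC, 11.0 to 14.7 TPM in CBPAAp53-floxed and 11.5 to 13.2 TPM in double mutant crypts. It lies 6.46 Mb from *Crebbp*, and both groups with the CBP knock-in were above both groups without it.

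**Figure D5:**
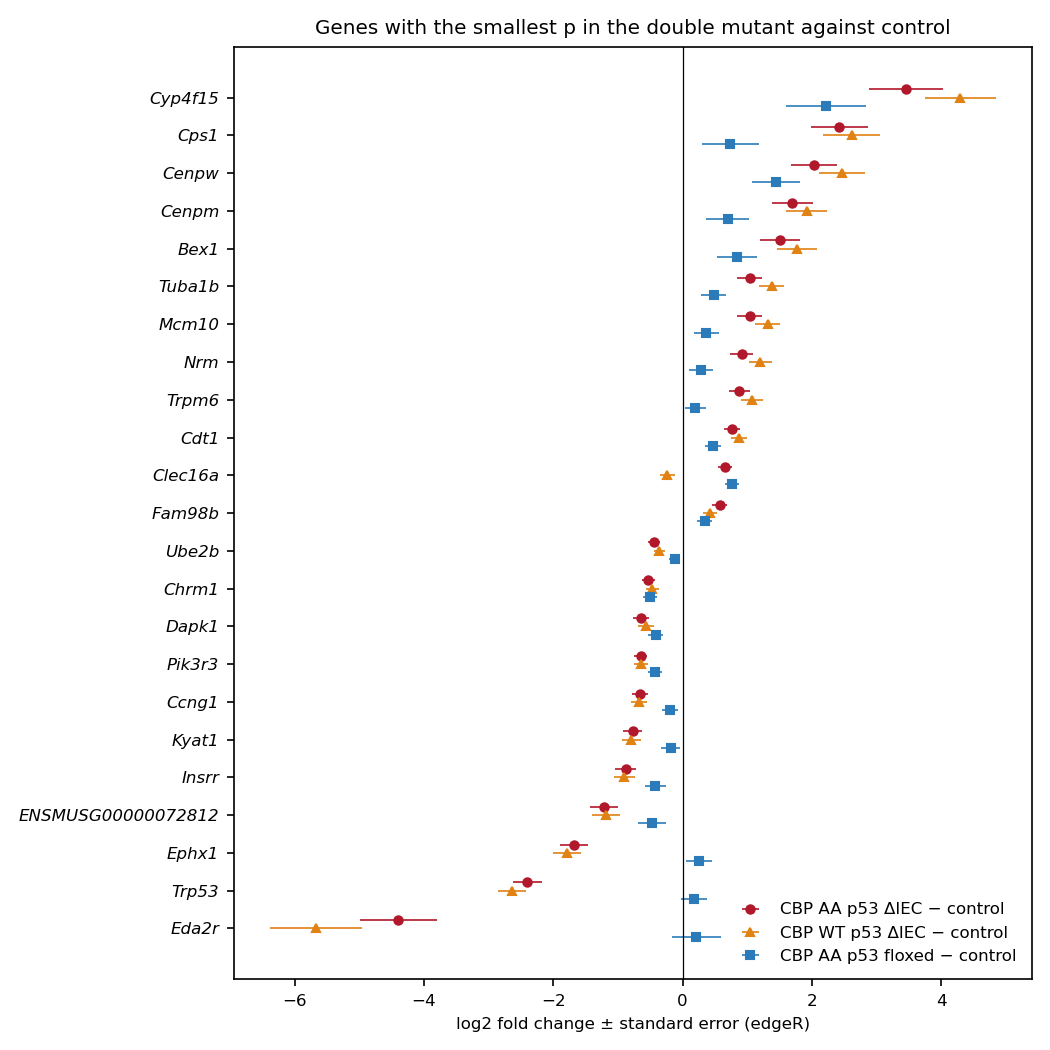
Log2 fold change against control with its standard error (x axis, edgeR) of the genes with the smallest p in the double mutant (y axis, *Trp53-ps* left out for its 0 counts), for the double mutant, CBPWTp53ΔIEC and CBPAAp53-floxed mice. The double mutant and CBPWTp53ΔIEC values lie side by side for most genes, and *Clec16a* is the one whose CBPWTp53ΔIEC value (−0.23) is on the other side of 0.

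Tested directly, the double mutant differed from CBPWTp53ΔIEC mice at the cutoff in 1 gene of 14610 (0.00684%), *Clec16a* (log2 fold change 0.89, SE 0.11, edgeR adjusted p = 0.0269). It differed from CBPAAp53-floxed mice in 4 genes (0.0274%), *Trp53* (−2.58), *Ephx1* (−1.93), *Eda2r* (−4.61) and Gm10736 (−1.08), all lower. *Lama3*, a laminin chain of the epithelial basement membrane, was at 9.70 to 10.9 TPM in control and at 3.78 to 6.37 TPM in the double mutant, and its log2 fold changes were −1.14 in the double mutant, −1.06 in CBPWTp53ΔIEC and −1.05 in CBPAAp53-floxed mice (adjusted p = 0.141, 0.0342 and 0.575).

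Genes near the altered loci were counted separately. Within 20 Mb of *Crebbp*, 190 other genes were tested, of which 14 (7.37%) had an unadjusted p under 0.05 with a higher and 15 (7.89%) with a lower level, against 7.28% and 3.8% of all genes. Within 20 Mb of *Trp53* these were 35 (7.13%) and 16 (3.26%) of 491 genes. None of them passed the cutoff in edgeR. *Sat2*, a thialysine acetyltransferase gene 0.0417 Mb from the start of *Trp53*, was at 3.52, 5.04 and 5.78 TPM in control and 10.2, 9.46 and 11.4 TPM in double mutant crypts (1.09, SE 0.27, adjusted p = 0.189), and at 9.89 to 10.7 TPM in CBPWTp53ΔIEC crypts.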

How the data were processed

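RNA of colonic crypts from 12 mice (3 per group) was sequenced after library preparation with a TruSeq kit, stranded per the labels and named without strand in the study's methods. The submitters' processing notes name fastp 0.20.0, FastQC 0.11.9, HISAT2 2.1.0, SAMtools 1.9, featureCounts of Subread 2.0.1 and GRCm38. For each library the authors deposited a column of read counts that were not normalized and a column of TPM. The columns of fold changes and p-values from the authors' tests were not used.

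The test was the robust quasi-likelihood fit of edgeR 4.0.16 (R 4.3.3) to the counts of all 12 libraries in 4 groups, after TMM scaling and filterByExpr (at least 10 counts), with Benjamini-Hochberg adjustment over 14610 genes. Library totals were 11177430 to 18029125 counts. The standard error of a log2 fold change was derived from the F statistic. TPM describe levels only, and CPM were used to see whether groups overlap. A group total of 0 counts was set to a floor of 3 counts, and a ratio with a group total of 1 to 3 counts has an exact counting interval. Alternatives used DESeq2 1.42.0, limma 3.58.1, other scalings and filters, the replicate number as a block and each library left out. The scripts were tested on simulated data.

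Named genes are those called, the 12 with the smallest p per direction, the 3 with the smallest p per list, and *Trp53*, *Crebbp*, *Vcan*, *Cdkn1a*, *Mdm2*, *Lgr5*, *Mki67* and *Cdh1*; other names were chosen after their values were seen, and some genes are not reported here. The members, gene lists and tests were chosen with earlier results of these data known. Of 921 listed symbols, 13 were not in the table, some of them older symbols. Figures were drawn with matplotlib 3.10.9. Coordinates are from GENCODE M21 (GRCm38).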

Additional observations from a re-analysis of the deposited data

Results flagged for a closer look

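Gm10736 had an interaction of CBP genotype and p53 deletion of -1.71 on the log2 scale (SE 0.21, edgeR adjusted p = 0.0222), the only gene of 14610 at the cutoff in that test. It was at 354 to 374 TPM in control, 616 to 741 TPM in CBPAAp53-floxed, 501 to 633 TPM in CBPWTp53ΔIEC and 329 to 375 TPM in CBPAAp53ΔIEC crypts, so that the double mutant and the control overlapped.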

How the results depend on the processing

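The count of genes at the cutoff (3, with 0 higher and 3 lower) was sensitive to the tool and to single mice. DESeq2 called 276 (225 higher, 51 lower) on all 12 samples and 389 (291 higher, 98 lower) on the 6 compared, and limma with sample weights 1278 (838 higher, 440 lower). DESeq2 on all 12 samples shared 257 of its 276 genes with limma and 2 of the 3 with edgeR. Without a filter on low counts edgeR called 42 genes (22 higher, 20 lower), and at an adjusted p under 0.1 it called 7 (3 higher, 4 lower). Leaving out 1 library gave 1 to 467 genes (0 to 369 higher, 1 to 98 lower); the highest counts came without replicate 3 of the double mutant. With AA replicate 2 and p53koWT replicate 1 both left out, chosen after seeing the data, edgeR called 31 (12 higher, 19 lower). Deviations of same-numbered double mutant and control libraries correlated at 0.0775, 0.109 and 0.0708. Libraries of unlike number were not correlated, so that these values do not decide whether the replicate numbers pair the samples. The replicate block left 1 gene, *Trp53*. The other scalings, edgeR on the 6 samples and the cutoff without a fold left 3 genes, and at least 10 counts in every sample left 2.

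With 1 library left out, the log2 fold change of *Crebbp* ranged from -0.13 to 0.084, of *Vcan* from -0.37 to 0.034, of *Cdkn1a* from -0.19 to 0.048, of *Mdm2* from -0.031 to 0.072, of *Bax* from -0.030 to 0.19, of *Ang4* from -1.17 to 0.34 and of *Xist* from -0.026 to 0.061 (-0.0011 with no filter), so that these reversed. Without replicate 3 of the double mutant the median of mitosis moved to 1.88, of clock from -0.63 to -1.04, of Paneth and small intestine from 2.68 to 1.04, of leukocyte markers from 0.40 to -0.024 and of stromal markers from 0.46 to 0.068. That of the stromal markers to -0.50 with at least 10 counts in every sample, which leaves fewer genes. The cause of these shifts was not tested. Depth limits *Eda2r*, *Phlda3* and *Trp53-ps*, which rest on under 80 counts.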
